A study of Arabidopsis thaliana with 6 samples.

Results

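The 10 genes described here carry the salicylic acid pathway of *Arabidopsis thaliana* from the switching on of hormone synthesis to the pathogenesis-related (PR) genes that the hormone induces. They were chosen by locus from the deposited count table: *ICS1*, *EDS1*, *PAD4*, *EDS5*, *NPR1*, *SARD1*, *CBP60g*, *PR1*, *PR2* and *PR5*. All 10 were found among the 28775 genes listed and all 10 passed the filter on low counts, which 21206 genes passed. The RNA came from whole seedlings collected at the end of a 16 h light period in air, with no low oxygen treatment, as 2 independent biological replicates per genotype. MA-Line1 is ecotype Col-0 with 35S:MA-JcERFVII2 (line 1), MC-Line3 is Col-0 with 35S:MC-JcERFVII2 (line 3), and Col-0 without a transgene was the control genotype. *JcERFVII2* is a group VII ethylene response factor of the oil plant *Jatropha curcas*, and the 35S promoter of a plant virus drives it throughout the plant. Its own transcript was not analysed here. The MC form keeps the methionine and cysteine with which these proteins begin, through which they are broken down while oxygen is present. In the MA form an alanine takes the place of that cysteine, which stabilizes the protein. Each form was sequenced in 1 line, so that the form and the line cannot be told apart. The count table numbers the MC columns as line 1, where the labels say line 3, and they were assigned by construct and replicate number. The labels give the age of all seedlings as 10 d, and the text of the study gives a younger age.

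Salicylic acid is the hormone that plants make against pathogens living on intact tissue. In *Arabidopsis* most of it is made in the plastid, where isochorismate synthase (ICS1) turns chorismate into isochorismate, which EDS5 exports to the cytosol. CBP60g and SARD1, a pair of related transcription factors, bind and switch on *ICS1*. EDS1 and PAD4 are lipase-like proteins that pair with each other and relay signals of immune receptors towards hormone synthesis. NPR1 binds the hormone and, with TGA transcription factors, switches on *PR1*, *PR2* and *PR5*, whose proteins are secreted or stored defence proteins.

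The windows upstream of *SARD1*, *CBP60g* and *ICS1* are shown because these genes are the activators of synthesis and the enzyme they switch on. Each holds the 250 bases before the annotated start of the gene, read 5′ to 3′ on the strand of the gene from the RefSeq TAIR10.1 genome. They lie at chr1:27749249-27749498 (minus strand), chr5:9475429-9475678 (plus strand) and chr1:28070045-28070294 (plus strand). Capitals mark matches, on either strand, to the W-box core TTGAC of WRKY factors, the TGA factor core TGACG, the motif GAAATT bound by CBP60g and SARD1, and the GCC box GCCGCC of ethylene response factors.
SARD1 window: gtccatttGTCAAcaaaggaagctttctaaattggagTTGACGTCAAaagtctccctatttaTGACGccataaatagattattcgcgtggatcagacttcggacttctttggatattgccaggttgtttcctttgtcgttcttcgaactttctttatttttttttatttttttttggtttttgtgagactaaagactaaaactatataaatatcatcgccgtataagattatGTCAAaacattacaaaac
CBP60g window: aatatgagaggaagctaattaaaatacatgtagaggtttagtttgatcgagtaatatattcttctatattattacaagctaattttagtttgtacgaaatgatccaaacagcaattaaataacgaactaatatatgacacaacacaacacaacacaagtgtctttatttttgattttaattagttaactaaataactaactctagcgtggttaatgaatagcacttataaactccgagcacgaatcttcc
ICS1 window: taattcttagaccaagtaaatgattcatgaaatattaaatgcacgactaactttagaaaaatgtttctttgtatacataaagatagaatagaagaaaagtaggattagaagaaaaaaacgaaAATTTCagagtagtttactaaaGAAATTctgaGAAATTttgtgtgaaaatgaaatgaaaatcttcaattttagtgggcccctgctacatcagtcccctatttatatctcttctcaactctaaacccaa
GAAATT stood 3 times in the *ICS1* window, between 128 and 91 bases before the start, with the match on the other strand written as AATTTC. Windows of 9 of the 10 genes were searched, and it was in 1 of the 9, against 32.2% of 27443 *Arabidopsis* windows of the same length. The *SARD1* window held 4 W-box cores and 3 TGA cores, of which 2 cores of each kind overlap in a palindrome between 213 and 204 bases before the start. The TGA core was in 1 of the 9 windows and in 18.6% of all windows. W-box cores were in 4 of the 9 windows (*EDS1*, *EDS5*, *PR5* and *SARD1*), and in 44.9% of all windows. The GCC box was in 0 of the 9 windows and in 1.87% of all windows. These are matches of letters, not measured binding sites.

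Each library held between 53084008 and 65271057 reads on genes, and values are given as counts-per-million (CPM) on library sizes scaled by the trimmed mean of M values (TMM) in edgeR. Changes are log2 fold changes ± standard error from edgeR's quasi-likelihood test, with p-values adjusted by the Benjamini-Hochberg method over the 21206 genes tested. A gene is called up- or downregulated (a DEG) at an adjusted p below 0.05. Across genes, the 2 replicates differed on the log2 scale with an SD of 0.320 in MA-Line1, 0.335 in MC-Line3 and 0.397 in Col-0. Both seedling organs were represented in every library, with green shoot markers between 31060 and 42540 CPM in sum and root markers between 1290 and 2956 CPM. In whole seedlings, fewer cells of a type and less RNA per cell cannot be told apart.

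In MA-Line1, *PR1*, *SARD1* and *PR5* were upregulated against Col-0 and the other 7 genes were not called. Over all genes tested, 37.1% were called in this comparison, 18.0% upregulated and 19.1% downregulated, so that 3 upregulated and 0 downregulated genes of 10 stand beside a high background. Their median log2 fold change was 0.09, and that of all genes tested was 0.01. In MC-Line3, 7 of the 10 genes were downregulated against the same Col-0 libraries and 0 were upregulated. There 31.2% of all genes were called, 14.5% upregulated and 16.7% downregulated, and the median was -0.47 for the 10 genes and 0.01 for all genes. The 2 Col-0 libraries are shared by both comparisons. Set directly against MC-Line3, MA-Line1 had higher levels of all 10 genes, and 7 of them were called, against 11.3% of all genes called higher, 8.68% called lower and 20.0% called in either direction. The median difference between the lines was 0.50 for the 10 genes and -0.01 for all genes. The count of calls moved with single libraries, as did that over all genes. It rose without Col-0 replicate 2 for MA-Line1 against Col-0, and fell without MC-Line3 replicate 2 between the lines. Tested against a change of 1.5-fold, 1, 1 and 3 of the 10 genes were called in the 3 comparisons, beside 1340, 825 and 946 of all genes. When dispersions were estimated without the genotypes, so that they contain the differences between them, 0 of the 10 and 0 of all genes were called.

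**Figure D1:**
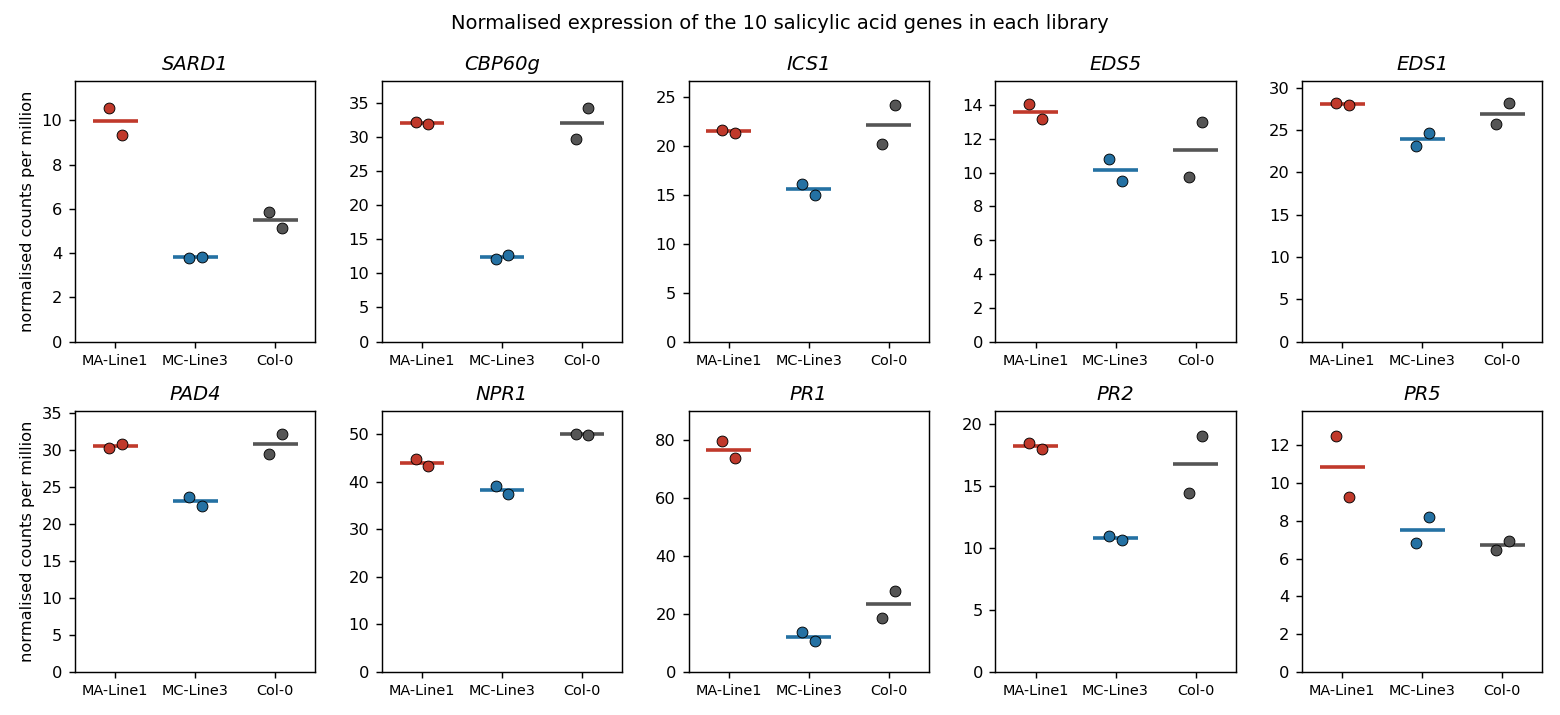
Normalised expression of each gene in counts-per-million (vertical axes, starting at 0) in the libraries of the 3 genotypes. Points are the 2 libraries of a genotype and the bar is their mean. The MA-Line1 libraries of *PR1* sit at 79.8 and 73.6 CPM, above 13.8 and 10.5 CPM in MC-Line3 and 18.6 and 27.9 CPM in Col-0, and the MC-Line3 libraries are the lowest for all genes but *EDS5* and *PR5*, where they overlap Col-0.

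*SARD1* (AT1G73805, chr1:27744790-27749248, minus strand) differed between all 3 genotypes. It had 10.6 and 9.34 CPM in the MA-Line1 libraries, 3.79 and 3.82 CPM in the MC-Line3 libraries and 5.88 and 5.12 CPM in the Col-0 libraries. No library of a genotype overlapped with those of another, with MA-Line1 highest and MC-Line3 lowest. Its log2 fold change against Col-0 was 0.86 ± 0.14 in MA-Line1 (edgeR, adjusted p = 7.88e-04), a 1.81-fold higher level. In MC-Line3 it was -0.53 ± 0.15 (edgeR, adjusted p = 0.0189), and this call was lost without Col-0 replicate 1 (-0.44, adjusted p = 0.0562), without either MC-Line3 library, and with scaling by library size alone (-0.40, adjusted p = 0.0551). On the opposite strand AT1G73790 overlaps *SARD1*, and rose in both lines, by 0.50 on the log2 scale for MA-Line1 and 0.44 for MC-Line3. The library kit does not keep strand, so that reads of their shared bases cannot be told apart.

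*CBP60g* (AT5G26920, chr5:9475679-9478777, plus strand), the other activator, showed the largest decrease of the 10 genes in MC-Line3. It stood at 32.2 and 31.9 CPM in MA-Line1, 12.2 and 12.7 CPM in MC-Line3 and 29.8 and 34.3 CPM in Col-0. Its MA-Line1 libraries lay within the range of the Col-0 libraries, whereas both MC-Line3 libraries lay far below. The level in MC-Line3 was 2.57-fold lower than in Col-0 (-1.36 ± 0.09, edgeR, adjusted p = 2.73e-06). In MA-Line1 the log2 fold change was 0.00 ± 0.09 (adjusted p = 0.994), a value smaller than its standard error. Thus both activators were downregulated in MC-Line3, where the call of *SARD1* depended on single libraries and on the scaling. In MA-Line1, *SARD1* alone was called.

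The synthesis enzyme gene *ICS1* (AT1G74710, chr1:28070295-28074177, plus strand) was downregulated in MC-Line3. Its levels were 21.7 and 21.3 CPM in MA-Line1, 16.1 and 15.0 CPM in MC-Line3 and 20.2 and 24.2 CPM in Col-0. Both MC-Line3 libraries were below all others, and the MA-Line1 libraries fell between the 2 Col-0 libraries. The log2 fold change was -0.05 ± 0.10 in MA-Line1 (edgeR, adjusted p = 0.749) and -0.51 ± 0.10 in MC-Line3 (adjusted p = 0.00371).

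*EDS5* (AT4G39030, chr4:18185437-18189224, plus strand), the exporter of the next step, was not called in either line. It had 14.1 and 13.2 CPM in MA-Line1, 10.8 and 9.49 CPM in MC-Line3 and 9.77 and 13.0 CPM in Col-0. The Col-0 libraries span most of the range of the other 4, and the calls depended on them. Its log2 fold change in MA-Line1 was 0.26 ± 0.14 with both Col-0 libraries (edgeR, adjusted p = 0.172) and 0.49 without Col-0 replicate 2 (adjusted p = 0.00723), and scaling by library size alone gave 0.42 (adjusted p = 0.0384). In MC-Line3 it was -0.17 ± 0.14 with both (adjusted p = 0.409) and -0.36 without Col-0 replicate 1 (adjusted p = 0.0314). AT4G39040, which overlaps *EDS5* on the opposite strand, was not called, with 72.2 and 73.0 CPM in MA-Line1, 79.1 and 78.5 CPM in MC-Line3 and 76.1 and 70.4 CPM in Col-0.

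Of the lipase-like pair, *PAD4* (AT3G52430, chr3:19431095-19434450, plus strand) was downregulated in MC-Line3 and its partner *EDS1* was not called. *PAD4* had 30.3 and 30.8 CPM in MA-Line1, 23.6 and 22.4 CPM in MC-Line3 and 29.4 and 32.1 CPM in Col-0. The MC-Line3 libraries were the lowest and those of MA-Line1 lay within the Col-0 range. The log2 fold change of *PAD4* was -0.01 ± 0.08 for MA-Line1 (edgeR, adjusted p = 0.928) and -0.42 ± 0.08 for MC-Line3 (adjusted p = 0.00305). *EDS1* (AT3G48090, chr3:17755329-17758147, minus strand) had 28.2 and 27.9 CPM in MA-Line1, 23.1 and 24.6 CPM in MC-Line3 and 25.7 and 28.2 CPM in Col-0. Its MC-Line3 libraries were again the lowest, but by a smaller distance, with a log2 fold change of -0.17 ± 0.08 (edgeR, adjusted p = 0.140) that reached -0.25 (adjusted p = 0.0400) without Col-0 replicate 1. A similar gene next to it, AT3G48080, was counted separately at 5.35 and 4.49 CPM in MA-Line1, 3.96 and 2.40 CPM in MC-Line3 and 2.92 and 3.49 CPM in Col-0. Only 0.977% of the 50-base stretches of *EDS1* exons occur elsewhere in the genome, so few reads of its exons could be shared.

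*NPR1* (AT1G64280, chr1:23852748-23855658, minus strand), the receptor, was downregulated in MC-Line3. It had 44.7 and 43.2 CPM in MA-Line1, 39.0 and 37.4 CPM in MC-Line3 and 50.1 and 49.8 CPM in Col-0. Both lines lay below Col-0 in all libraries, MC-Line3 by the larger distance. The log2 fold change was -0.18 ± 0.07 in MA-Line1 (edgeR, adjusted p = 0.0620) and -0.39 ± 0.07 in MC-Line3 (adjusted p = 0.00217). Among the 10 genes it had the smallest difference between the lines, 0.20 ± 0.07 (adjusted p = 0.0691). AT1G64270 and AT1G08667, annotated on the opposite strand over *NPR1*, were not analysed here.

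*PR1* (AT2G14610, chr2:6241640-6242541, minus strand), the usual marker of the salicylic acid response, had the largest change of the 10 genes in MA-Line1. Its counts were 5397 and 4232 reads in MA-Line1, 744 and 597 reads in MC-Line3 and 999 and 1725 reads in Col-0. Normalised, these were 76.7 ± 4.36 CPM in MA-Line1, 12.2 ± 2.27 CPM in MC-Line3 and 23.2 ± 6.57 CPM in Col-0 (mean ± SD, n = 2 each). The genotypes did not overlap, and the level was 3.29-fold higher in MA-Line1 than in Col-0 (1.72 ± 0.17, edgeR, adjusted p = 2.60e-05). In MC-Line3 it was 1.92-fold lower than in Col-0 (-0.94 ± 0.17, adjusted p = 0.00225). The Col-0 libraries themselves differed by 0.58 on the log2 scale.

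*PR2* (AT3G57260, chr3:21188397-21189967, minus strand), which encodes a beta-glucanase that attacks fungal cell walls, was downregulated in MC-Line3 and not called in MA-Line1. It had 18.4 and 17.9 CPM in MA-Line1, 10.9 and 10.7 CPM in MC-Line3 and 14.4 and 19.1 CPM in Col-0. The MC-Line3 libraries were the lowest, and the MA-Line1 libraries lay within the span of Col-0. The log2 fold change was 0.12 ± 0.12 in MA-Line1 (edgeR, adjusted p = 0.486) and -0.63 ± 0.13 in MC-Line3 (adjusted p = 0.00366). Without Col-0 replicate 2 the value in MA-Line1 was 0.34 (adjusted p = 0.0195), and without Col-0 replicate 1 it was -0.06.

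*PR5* (AT1G75040, chr1:28177670-28179022, plus strand) encodes a thaumatin-like protein and was upregulated in MA-Line1 and not called in MC-Line3. It had 12.5 and 9.27 CPM in MA-Line1, 6.84 and 8.18 CPM in MC-Line3 and 6.48 and 6.95 CPM in Col-0. Both MA-Line1 libraries were above all others, but they differed from each other by 0.43 on the log2 scale, the largest gap on that scale between the MA-Line1 libraries of any of the 10 genes. The log2 fold change in MA-Line1 was 0.70 ± 0.16 (edgeR, adjusted p = 0.00613), and 0.47 (adjusted p = 0.0937) without MA-Line1 replicate 1. In MC-Line3 it was 0.16 ± 0.16 (adjusted p = 0.489), the only positive value among the 10 genes in that line.

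**Figure D2:**
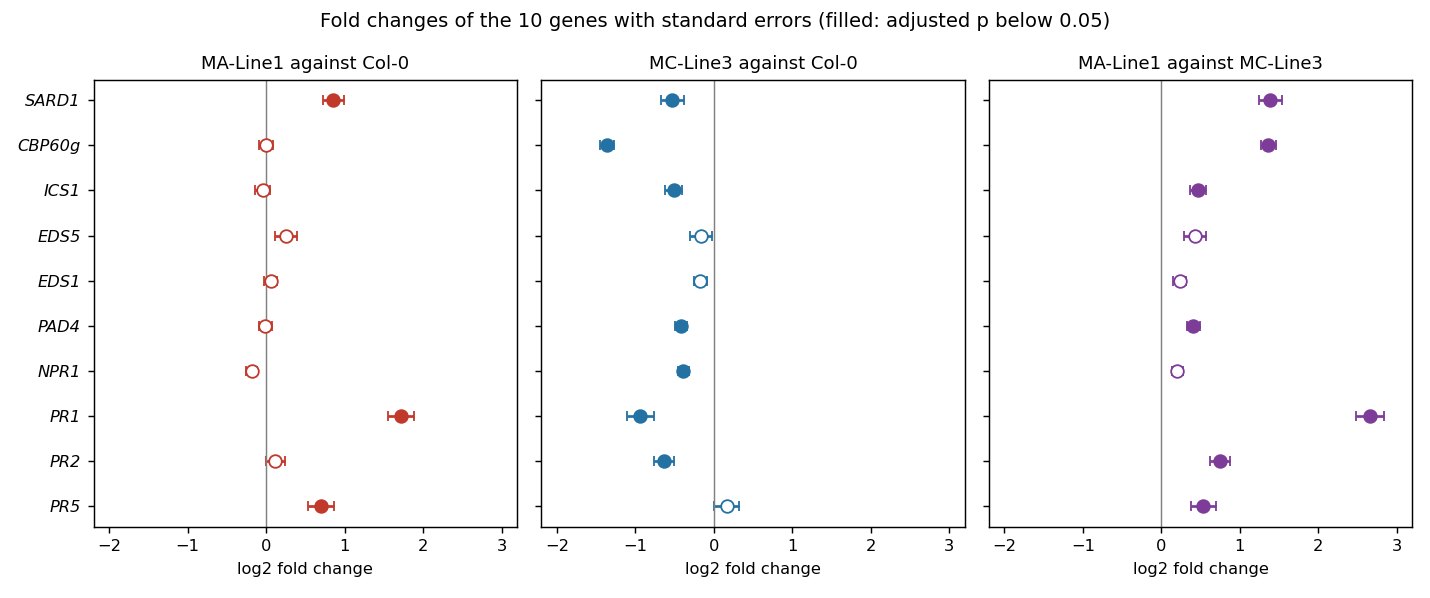
Log2 fold change (horizontal axes) of each gene in MA-Line1 against Col-0, MC-Line3 against Col-0 and MA-Line1 against MC-Line3. Points are edgeR estimates, bars are standard errors, and filled points were called at an adjusted p below 0.05. Filled points lie right of 0 for 3 genes in MA-Line1, left of 0 for 7 genes in MC-Line3, and right of 0 for 7 genes between the lines.

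The direct comparison of MA-Line1 with MC-Line3 tests whether the 2 lines differ, without the Col-0 libraries in the contrast. In MA-Line1, *PR1* stood 6.31-fold higher than in MC-Line3 (2.66 ± 0.17, edgeR, adjusted p = 3.29e-06). The activators had nearly equal differences, 1.39 ± 0.14 for *SARD1* (adjusted p = 6.73e-05) and 1.36 ± 0.09 for *CBP60g* (adjusted p = 3.92e-06). *PR2* followed with 0.75 ± 0.13 (adjusted p = 0.00169). Differences of *PR5* (0.54 ± 0.16, adjusted p = 0.0371), *ICS1* (0.47 ± 0.10, adjusted p = 0.00857) and *PAD4* (0.41 ± 0.08, adjusted p = 0.00470) also passed the test. These 3 calls were lost when single libraries of either line were left out. That of *PR5* was lost without MA-Line1 replicate 1 (0.30, adjusted p = 0.384) or either MC-Line3 library, and that of *ICS1* without MC-Line3 replicate 2 (0.41, adjusted p = 0.0898) or either MA-Line1 library. The call of *PAD4* was lost without MC-Line3 replicate 2 (0.37, adjusted p = 0.0539) or MA-Line1 replicate 2. The differences of *EDS5* (0.42 ± 0.14, adjusted p = 0.0578) and *EDS1* (0.23 ± 0.08, adjusted p = 0.0763) missed the threshold, as did that of *NPR1*. DESeq2 called *EDS5* (adjusted p = 0.0409). In a fit of the MA-Line1 and MC-Line3 libraries alone, all 10 genes were called. That fit also called more of all genes, 5963 of 20967 tested, where the fit of all libraries called 4242 of 21206.

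Levels of different genes were compared per kilobase (kb) of exon. In MA-Line1, *PR1* stood first at 85.0 CPM per kb, ahead of *NPR1* at 16.8, *CBP60g* at 13.9 and *PAD4* at 13.5 CPM per kb. In MC-Line3, *NPR1* came first at 14.6 CPM per kb, with *PR1* at 13.5 and *PAD4* at 10.2 CPM per kb, and *CBP60g* had dropped behind 7 other genes to 5.40 CPM per kb. In Col-0, *PR1* led with 25.8 CPM per kb, followed by *NPR1* at 19.1, *CBP60g* at 13.9 and *PAD4* at 13.6 CPM per kb, the last pair differing by less than the spread of the Col-0 replicates. *SARD1* was the lowest of the 10 in every genotype, at 4.15 CPM per kb in MA-Line1, 1.59 in MC-Line3 and 2.30 in Col-0.

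The 2 Col-0 libraries did not have the same level of these genes. Replicate 2 was higher than replicate 1 for 8 of the 10 genes, with a median log2 difference of 0.17, against 0.01 over all genes tested. The differences were 0.58 for *PR1*, 0.41 for *EDS5* and 0.40 for *PR2*. In MA-Line1, replicate 2 was lower for 9 of the 10 genes with a median of -0.04, and in MC-Line3 for 6 of them with a median of -0.05.

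Of 54 other genes of the pathway, grouped by role, 53 were tested. In MA-Line1, 17 were upregulated and 12 downregulated against Col-0, with a median log2 fold change of 0.05, where 18.0% and 19.1% of all genes were called, so that the downregulated count is near the background. With scaling by library size alone the split moved to 25 upregulated and 7 downregulated. That scaling also called 6954 of the 21206 genes tested upregulated and 2509 downregulated. Fewer pathway genes were called without either MA-Line1 library, and fewer of all genes were called there too. In MC-Line3, 3 were upregulated and 24 downregulated, with a median of -0.17, where 14.5% and 16.7% of all genes were called. Between the lines, 27 were higher and 3 lower in MA-Line1 than in MC-Line3, with a median of 0.43, where 11.3% and 8.68% of all genes were called. Fewer pathway genes were called between the lines when any library of either line was left out, and fewer of all genes were called there too.

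Among 7 genes of synthesis and transport, 2 were upregulated and 2 downregulated in MA-Line1, against 0 upregulated and 4 downregulated in MC-Line3. The counts in MA-Line1 are near the shares of all genes called (18.0% up and 19.1% down), and 16.7% of all genes were downregulated in MC-Line3. *PBS3*, whose enzyme joins isochorismate to glutamate in the step after *EDS5*, had 10.4 and 10.8 CPM in MA-Line1, 2.18 and 1.93 CPM in MC-Line3 and 5.14 and 8.32 CPM in Col-0. Its MA-Line1 libraries were the highest and its MC-Line3 libraries the lowest, with log2 fold changes of 0.66 ± 0.20 for MA-Line1 (edgeR, adjusted p = 0.0226) and -1.72 ± 0.22 for MC-Line3 (adjusted p = 2.29e-04). Its call in MA-Line1 was lost without Col-0 replicate 1 (0.36, adjusted p = 0.0815) and without either MA-Line1 library. *ICS2*, the minor isochorismate synthase, was downregulated in MA-Line1 (-0.75 ± 0.16, adjusted p = 0.00405) and had -0.08 ± 0.16 in MC-Line3 (adjusted p = 0.755). It overlaps AT1G18871 on the opposite strand. *PAL4*, a phenylalanine ammonia-lyase of the other route to the hormone, was downregulated in both lines, with -0.37 ± 0.10 for MA-Line1 and -0.49 ± 0.11 for MC-Line3. The value for MA-Line1 was not called when either MA-Line1 library was left out or by library size alone (-0.20). That for MC-Line3 was not called without MC-Line3 replicate 2 (-0.45). Outside the naming rule, *PAL1* averaged 293 CPM in MA-Line1, 193 CPM in MC-Line3 and 204 CPM in Col-0. It was upregulated in MA-Line1 (0.52 ± 0.07, edgeR, adjusted p = 3.21e-04) and not called in MC-Line3 (-0.08 ± 0.07). *PAL2* was not called in MA-Line1 (-0.07 ± 0.08) and was downregulated in MC-Line3 (-0.41 ± 0.08). *PAL3* was not called in either line.

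Of 7 regulators of synthesis, 0 were upregulated in either line, while 2 fell in MA-Line1, near the 19.1% of all genes that fell there, and 4 fell in MC-Line3, against 16.7% of all genes. Among those called were *NAC019* and *NAC072*, NAC transcription factors that repress *ICS1*. *NAC019* had 16.0 and 13.9 CPM in MA-Line1, 5.75 and 4.70 CPM in MC-Line3 and 24.2 and 33.6 CPM in Col-0, and fell in both lines, to the lowest level in MC-Line3 (-2.47 ± 0.17, edgeR, adjusted p = 2.56e-06). The log2 fold change of *NAC072* was -1.12 ± 0.07 for MA-Line1 and -1.32 ± 0.07 for MC-Line3 (adjusted p = 1.53e-06 and 4.89e-07). In MC-Line3 these repressors and the activators *CBP60g* and *SARD1* were thus downregulated together, *SARD1* with a call that depended on single libraries. The other regulators called in MC-Line3 were *NAC055* (-1.18 ± 0.14) and *CBP60a* (-0.69 ± 0.09). Neither was called in MA-Line1 (-0.03 ± 0.13 for *NAC055* and -0.23 ± 0.09 for *CBP60a*). The 3 *CAMTA* genes, whose factors repress *CBP60g* and *SARD1*, were not called in either line, with log2 fold changes between -0.17 and 0.14.

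In the lipase-like group, 5 genes stood beside *EDS1* and *PAD4*, and all 5 were called higher in MA-Line1 when set against MC-Line3, as were 11.3% of all genes. Against Col-0, 1 was upregulated and 3 downregulated in MA-Line1 (18.0% and 19.1% of all genes), and 4 were downregulated in MC-Line3 (16.7% of all genes). *SAG101*, the other partner of EDS1, had 25.6 and 25.5 CPM in MA-Line1, 18.3 and 19.6 CPM in MC-Line3 and 18.9 and 19.9 CPM in Col-0, and was upregulated in MA-Line1 (0.40 ± 0.08, edgeR, adjusted p = 0.00360). *ADR1-L2*, a helper immune receptor that works with EDS1 and PAD4, was downregulated in MC-Line3 (-0.87 ± 0.07, adjusted p = 1.30e-05) and less so in MA-Line1 (-0.21 ± 0.07, adjusted p = 0.0383). The call in MA-Line1 was lost without either MA-Line1 library, MC-Line3 replicate 1 or Col-0 replicate 2, and by library size alone (-0.04). *NDR1*, a membrane protein needed by another class of immune receptors, was downregulated in both lines, with -0.65 ± 0.14 for MA-Line1 and -1.15 ± 0.14 for MC-Line3.

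Of 12 receptors and partners, 5 were upregulated and 1 downregulated in MA-Line1, against 2 upregulated and 2 downregulated in MC-Line3. Of all genes, 18.0% and 19.1% were called in MA-Line1 and 14.5% and 16.7% in MC-Line3, so that the counts in MC-Line3 are at the background. *NPR3*, a hormone receptor that acts against NPR1 at target genes, had 67.9 and 62.8 CPM in MA-Line1, 34.7 and 34.7 CPM in MC-Line3 and 52.4 and 60.9 CPM in Col-0. Like *NPR1* it was downregulated in MC-Line3 (-0.71 ± 0.09, edgeR, adjusted p = 1.81e-04), and its value in MA-Line1 was 0.21 ± 0.09 (adjusted p = 0.0835), called without Col-0 replicate 2 (0.32, adjusted p = 0.00402) and by library size alone (0.37). *TGA7*, from the TGA family that binds NPR1, was upregulated in MA-Line1 (0.72 ± 0.10, adjusted p = 3.56e-04). *NIMIN1*, a small NPR1-binding repressor, was counted at 112 and 92 reads in MA-Line1, 40 and 31 reads in MC-Line3 and 19 and 63 reads in Col-0. Its call in MA-Line1 (1.23 ± 0.43, adjusted p = 0.0449) did not survive leaving out Col-0 replicate 1 (0.68, adjusted p = 0.174) or any MA-Line1 or MC-Line3 library, or a fit of MA-Line1 and Col-0 alone. Its relative *NIMIN3* was upregulated in both lines, with 0.39 ± 0.09 for MA-Line1 and 0.43 ± 0.09 for MC-Line3. The call of *NIMIN3* in MA-Line1 was lost without MA-Line1 replicate 2 (0.36, adjusted p = 0.0722), and that in MC-Line3 without MC-Line3 replicate 1 (0.40, adjusted p = 0.0501).

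**Figure D3:**
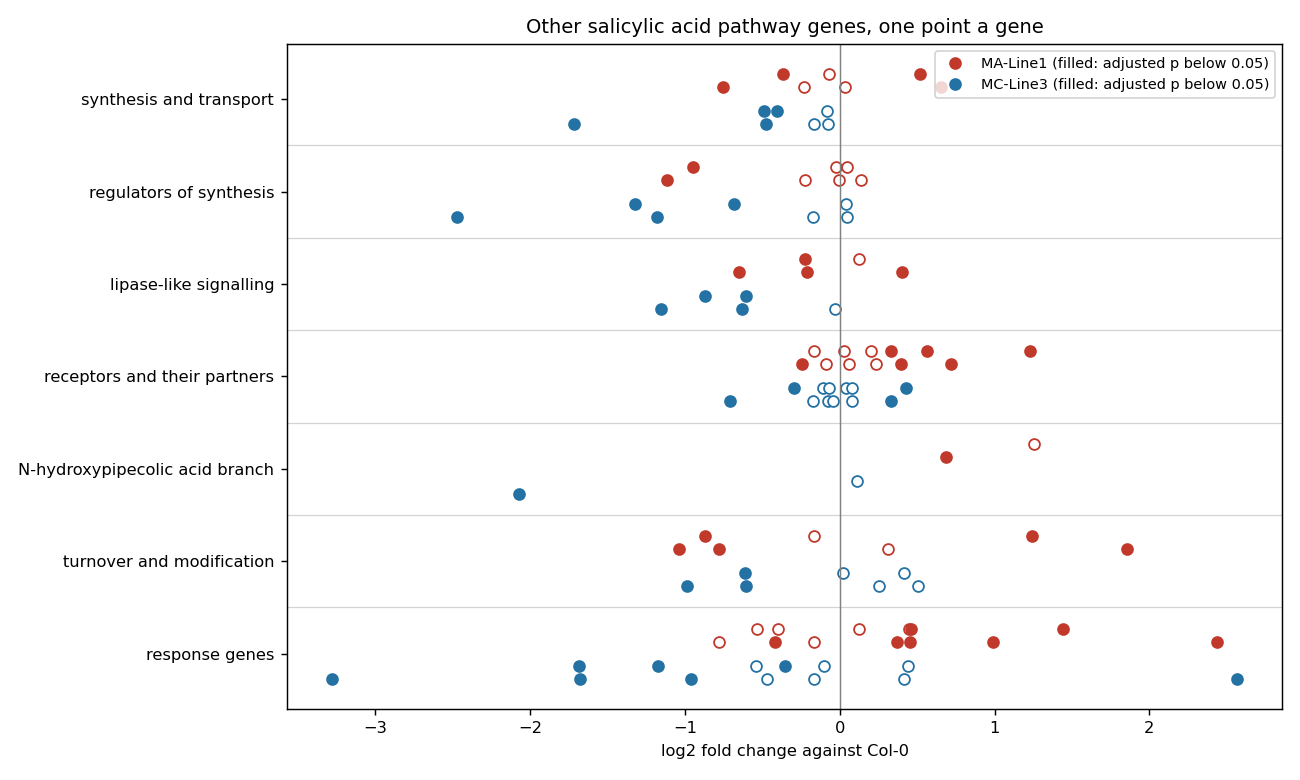
Log2 fold change against Col-0 (horizontal axis) of the 53 other pathway genes tested, in rows by role. Each point is a gene, red for MA-Line1 (upper in each row) and blue for MC-Line3 (lower), and filled points were called at an adjusted p below 0.05. Left of 0 lie 12 red and 24 blue filled points, and right of 0 lie 17 red and 3 blue ones.

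Of 7 tested genes that inactivate or modify the hormone, 2 were upregulated and 3 downregulated in MA-Line1, against 0 upregulated and 3 downregulated in MC-Line3, where the shares of all genes were 18.0% and 19.1% in MA-Line1 and 14.5% and 16.7% in MC-Line3. *DLO1*, whose oxygenase hydroxylates salicylic acid, had 6.77 and 5.77 CPM in MA-Line1, 2.81 and 2.12 CPM in MC-Line3 and 1.80 and 1.66 CPM in Col-0. It was 3.62-fold higher in MA-Line1 than in Col-0 (1.86 ± 0.20, edgeR, adjusted p = 5.59e-05). *DMR6*, of the same group but outside the naming rule, went the other way at higher levels. It averaged 30.1 CPM in MA-Line1, 34.0 CPM in MC-Line3 and 51.6 CPM in Col-0. *DMR6* was downregulated in MA-Line1 (-0.78 ± 0.08, edgeR, adjusted p = 3.03e-05) and in MC-Line3 (-0.60 ± 0.08, adjusted p = 2.17e-04). *UGT76B1*, a glucosyltransferase of salicylic acid and related defence compounds, was upregulated in MA-Line1 like *DLO1* (1.24 ± 0.15, edgeR, adjusted p = 1.29e-04). *UGT76B1* had 33.7 and 35.5 CPM in MA-Line1, 21.9 and 17.1 CPM in MC-Line3 and 17.1 and 12.2 CPM in Col-0. Its value in MC-Line3 was 0.41 ± 0.15 (adjusted p = 0.0636), and it was called upregulated there without Col-0 replicate 1 (0.67, adjusted p = 4.39e-04), by DESeq2 (adjusted p = 0.0454), by the likelihood ratio and exact tests, with no filter and by library size alone. *MES9* and *MES1*, esterases that free the hormone from methyl salicylate, were downregulated in both lines, *MES9* with -1.04 ± 0.11 for MA-Line1 and -0.99 ± 0.11 for MC-Line3. *MES1* had -0.87 ± 0.20 for MA-Line1 and -0.61 ± 0.19 for MC-Line3, where its call was lost without MC-Line3 replicate 2 (-0.44, adjusted p = 0.215), without Col-0 replicate 2 or either MA-Line1 library, in a fit of MC-Line3 and Col-0 alone, and by library size alone. The call of *MES1* in MA-Line1 was lost without MA-Line1 replicate 1 (-0.83, adjusted p = 0.0524).

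*FMO1*, which makes N-hydroxypipecolic acid, a partner signal of salicylic acid in systemic immunity, was upregulated in MA-Line1 and downregulated in MC-Line3, like *PR1*. It had 5.71 and 5.18 CPM in MA-Line1, 0.851 and 0.760 CPM in MC-Line3 and 3.39 and 3.38 CPM in Col-0. The genotypes did not overlap, with log2 fold changes of 0.69 ± 0.17 in MA-Line1 (edgeR, adjusted p = 0.00954) and -2.07 ± 0.20 in MC-Line3 (adjusted p = 3.85e-05). The call in MA-Line1 was lost without MA-Line1 replicate 1 (0.62, adjusted p = 0.103). *ALD1*, the enzyme at the start of that branch, was not called in either line.

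Of 13 further response genes, 6 were upregulated and 1 downregulated in MA-Line1, and 1 was upregulated and 6 downregulated in MC-Line3, beside 18.0% and 19.1% of all genes in MA-Line1 and 14.5% and 16.7% in MC-Line3. *WRKY38*, encoding a WRKY factor that restrains defence, was upregulated in MA-Line1 (1.44 ± 0.35, edgeR, adjusted p = 0.00792) at low levels of 1.42 and 1.74 CPM in MA-Line1, 0.499 and 0.336 CPM in MC-Line3 and 0.540 and 0.614 CPM in Col-0, and not without MA-Line1 replicate 2 (1.29, adjusted p = 0.0729). Its relative *WRKY62* had 17 and 10 reads in MA-Line1, 3 and 1 reads in MC-Line3 and 17 and 26 reads in Col-0, with the MC-Line3 libraries at or under 3 counts, and was called downregulated in MC-Line3 (adjusted p = 0.00913), though not without MC-Line3 replicate 2 (adjusted p = 0.0939). *BG3*, a beta-glucanase gene close to *PR2* on chromosome 3, was called upregulated in both lines, with 67 and 60 reads in MA-Line1 and 63 and 60 in MC-Line3. Col-0 had 0 and 22 reads, so that 1 Col-0 library without a read sets its fold change, and DESeq2 did not call it (adjusted p = 0.256 in MA-Line1 and 0.251 in MC-Line3). Its call in MA-Line1 was also lost without any 1 library of either line and in a fit of MA-Line1 and Col-0 alone (adjusted p between 0.0536 and 0.0750), and that in MC-Line3 without either MC-Line3 library (adjusted p = 0.102 and 0.0972).

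Touch and wounding genes, which respond within minutes to handling of plants, moved in the same direction as the salicylic acid genes between the lines. Summed over 7 genes they reached 989 and 1001 CPM in MA-Line1, 796 and 720 CPM in MC-Line3 and 1331 and 1376 CPM in Col-0. Against Col-0, 5 of 7 were downregulated in MA-Line1 (19.1% of all genes) and 6 of 7 in MC-Line3 (16.7% of all genes). In the direct comparison, 6 of 7 were higher in MA-Line1 (11.3% of all genes). The part of handling in the values of the 10 genes was not tested. Root markers summed to 1290 and 1372 CPM in MA-Line1, 2762 and 2328 CPM in MC-Line3 and 2956 and 2741 CPM in Col-0, with 4 of 4 downregulated in MA-Line1, beside the same 19.1%, and 0 of 4 called in MC-Line3. Green shoot markers summed to 31060 and 34015 CPM in MA-Line1, 34528 and 36214 CPM in MC-Line3 and 42540 and 41136 CPM in Col-0, with 2 of 3 downregulated in each line, beside 19.1% and 16.7% of all genes. What part a lower share of root RNA had in the MA-Line1 values was not tested. *SAG13*, a gene of early senescence and defence, had 69.8 and 65.7 CPM in MA-Line1, 11.7 and 11.4 CPM in MC-Line3 and 29.4 and 42.0 CPM in Col-0, the order found for *PR1*. *SAG12*, the defining gene of late leaf senescence, had 0 or 1 read in every library, and seed storage genes had at most 2 reads.

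**Figure D4:**
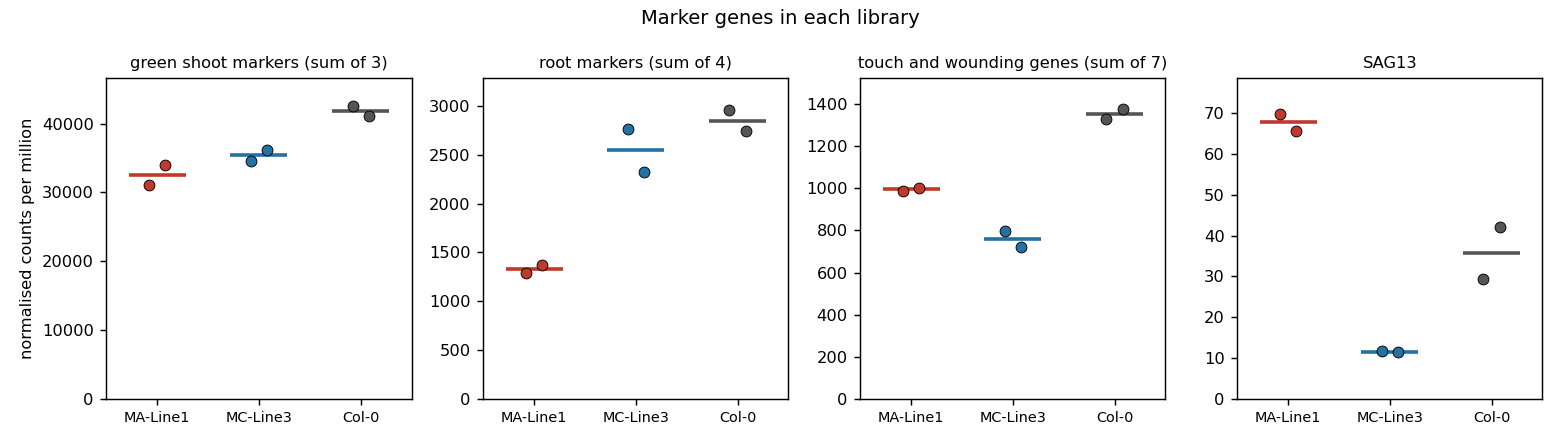
Summed normalised expression in counts-per-million (vertical axes, starting at 0) of green shoot, root, and touch and wounding marker genes, and the level of *SAG13*. Points are the 2 libraries of each genotype, with MA-Line1 at the left, and bars are means. Root markers are lowest in MA-Line1, and touch and wounding genes and *SAG13* are lowest in MC-Line3.

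The genes closest to *PR1* and *ICS1* in pattern were sought among 18732 genes by Pearson's correlation of log2 CPM over the 6 libraries, which share 3 genotypes, so that r describes the pattern over genotypes and carries no test. Nearest to *PR1* were *PRX52*, a class III peroxidase gene (r = 0.998), AT4G18970, *NRT1.1*, a nitrate transporter gene, *GSTU11*, a glutathione transferase gene, and AT3G13950. *PRX52* averaged 13.4 CPM in MA-Line1, 1.11 CPM in MC-Line3 and 2.69 CPM in Col-0, and *GSTU11* averaged 19.1 CPM in MA-Line1, 1.96 CPM in MC-Line3 and 4.52 CPM in Col-0. Pearson's r does not reflect the size of a change, and the other 3 changed less. In MA-Line1, MC-Line3 and Col-0, AT4G18970 averaged 112, 90.1 and 96.8 CPM. In the same order, *NRT1.1* averaged 201, 103 and 125 CPM, and AT3G13950 averaged 22.6, 4.58 and 8.24 CPM. Nearest to *ICS1* were AT2G19310, AT3G62590, *MIPS2*, *GBSS1* and AT1G27210. *GBSS1*, for granule-bound starch synthase, averaged 115 CPM in MA-Line1, 76.9 CPM in MC-Line3 and 124 CPM in Col-0. None of these genes belongs to the pathway list.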

How the data were processed

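RNA of whole seedlings was sequenced in 6 libraries, 2 per genotype, from poly(A) libraries whose kit does not keep strand. The authors aligned the reads with TopHat2 to TAIR10 and counted them on genes with HTSeq, per the labels, and deposited the counts of each gene as whole numbers, not normalized. The version of HTSeq and the strand setting and mode of counting are not given in the sources used here. The study called DEGs with edgeR.

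Counts were fitted in R 4.3.3 with edgeR 4.0.16 (estimateDisp, glmQLFit with default settings, glmQLFTest) in 1 model of all 6 libraries with a mean per genotype, after TMM normalization and edgeR's filter on low counts, with Benjamini-Hochberg adjustment over 21206 genes. The standard error of a log2 fold change is its size over the root of the F statistic. Replicate SDs rest on 2 libraries. The floor was 3 counts, for counting error only. The procedure was run on simulated counts with the same dispersion for all genes and few changed genes. That setting is simpler than these data, so it does not bear on the calls made here. Alternatives used other scalings, filters and tests (DESeq2 1.42.0 and limma 3.58.1 among them), fewer groups, a replicate block, and each library left out.

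The members and lists were chosen with earlier results of these data known. Of 59 pathway genes listed, 54 matched the RefSeq TAIR10.1 annotation by identifier and symbol and 5 were dropped. Named pathway genes are, in each role, the 2 with the largest log2 fold change among those called in each line. Further genes of a role, such as *PAL1*, *DMR6* and *NAC055*, are named outside this rule. Upstream windows were cut from the TAIR10.1 genome, since a ready table of promoters was not used here, and 1 of the 10 windows is not reported here. Likeness used genes with a mean of at least 1 CPM and a pseudocount of 0.5 CPM.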

Additional observations from a re-analysis of the deposited data

Results flagged for a closer look

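Of the 10 genes, 7 differed between MA-Line1 and MC-Line3 by the test of that difference itself. The log2 difference, MA-Line1 minus MC-Line3, was 2.66 for *PR1*, 1.39 for *SARD1*, 1.36 for *CBP60g*, 0.75 for *PR2*, 0.54 for *PR5*, 0.47 for *ICS1* and 0.41 for *PAD4* (edgeR, quasi-likelihood test, Benjamini-Hochberg adjusted p between 3.29e-06 and 0.0371). Of all genes tested, 20.0% were called in this comparison in either direction and 11.3% were called higher in MA-Line1. Both MA-Line1 libraries were higher than both MC-Line3 libraries in each of the 7. This also held for *EDS1*, *EDS5* and *NPR1*, which were not called. How many of all genes separate in this way was not counted. The calls of *PR5*, *ICS1* and *PAD4* were lost when single libraries of either line were left out. Groups of 2 libraries allow no test for outlying samples.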

How the results depend on the processing

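Over all alternatives, 496 of 570 values of the 10 genes kept their direction and their side of the threshold, 42 lost a call, 19 gained a call and 13, none called with all libraries, changed sign. Of 1134 values of the pathway genes named by the rule, 978 kept both, 117 lost a call, 27 gained a call and 12 changed sign. When change had to exceed 1.5-fold (glmTreat), 1, 1 and 3 members were called in MA-Line1 against Col-0, MC-Line3 against Col-0 and MA-Line1 against MC-Line3, with 4, 11 and 10 pathway genes and 1340, 825 and 946 of all genes. A likelihood ratio test whose dispersions were estimated without genotypes, so that they contain the differences between them, called 0 members, 0 pathway genes and 0 of all genes in each comparison, with an unadjusted p under 0.05 for 2587, 1875 and 1448 genes. In the quasi-likelihood fit of all libraries, 7864, 6618 and 4242 genes were called after adjustment, where DESeq2 called 7361, 6232 and 4202. Genes with an unadjusted p under 0.05 numbered 9914, 8938 and 6636 in that fit and 9075, 8116 and 5984 by DESeq2. Leaving out each library in turn gave 2 to 5 members in MA-Line1 against Col-0, 6 to 8 in MC-Line3 against Col-0 and 4 (without MC-Line3 replicate 2) to 10 (without either Col-0 library) in MA-Line1 against MC-Line3. For pathway genes it gave 15 to 30, 18 to 30 and 18 to 35, and for all genes 4379 to 8413, 3536 to 7476 and 2124 to 6074. With 1 library left in a genotype, that library was assumed to vary like the others. Replicates of the same number did not deviate together (r between -0.0525 and 0.0324), and a replicate block called 3, 7 and 7 members, 27, 29 and 28 pathway genes and 7493, 6215 and 3951 genes. With the block, *ADR1-L2* was not called in MA-Line1 (-0.21, adjusted p = 0.0584) and *UGT76B1* was called in MC-Line3 (0.42, adjusted p = 0.0299). Scaling by library size alone moved the median of all genes to 0.18 for MA-Line1 and 0.14 for MC-Line3 against Col-0. It called 6954 genes higher and 2509 lower in MA-Line1, where TMM called 18.0% higher and 19.1% lower, and 5371 higher and 2358 lower in MC-Line3, where TMM called 14.5% and 16.7%. The quasi-likelihood test with newer settings, chosen after seeing the data, changed no member count. Legacy settings equal the defaults in this version and gave no separate value.

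Sign changes were as follows, as log2 fold changes, and their cause was not tested. In MA-Line1 against Col-0, *CBP60g* gave -0.0075 by DESeq2, -0.0075 with RLE size factors and -0.0039 with only the genotypes compared, and library size alone gave 0.12 for *ICS1* and 0.16 for *PAD4*. In MC-Line3 against Col-0, library size alone gave 0.050 for *ICS2*, 0.10 for *SAG101* and 0.0095 for *NIMIN1*, and limma voom gave 0.035 for *NIMIN1*. Between the lines, library size alone gave 0.0058 for *NIMIN3*. Leaving out a library in turn gave, in MA-Line1 against Col-0, -0.091 to 0.11 for *CBP60g*, -0.0010 to 0.14 for *EDS1*, -0.060 to 0.34 for *PR2*, -0.17 to 0.10 for *ICS1* and -0.066 to 0.060 for *PAD4*. In MC-Line3 against Col-0 it gave -0.36 to 0.048 for *EDS5*, -0.27 to 0.14 for *ICS2*, -0.67 to 0.85 for *NIMIN1*, -0.056 to 0.22 for *TGA7* and -0.080 to 0.010 for *SAG101*, and between the lines -0.12 to 0.021 for *MES9* and -0.067 to 0.0034 for *NIMIN3*.

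The depth gave at least 205 reads per library for each of the 10 genes. The log2 gap between replicates varied, with 0.009 for *SARD1* in MC-Line3 and 0.58 for *PR1* in Col-0. The part of counting error in these gaps was not tested. *WRKY62* and *BG3* were at or under the floor of 3 counts in some libraries.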

Other observations

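Described here are 3 response genes outside the naming rule, chosen after their values were seen, that had large differences between the lines. *GRX480*, encoding a glutaredoxin induced by salicylic acid through NPR1, had 10.6 and 12.1 CPM in MA-Line1, 2.94 and 2.30 CPM in MC-Line3 and 6.42 and 10.2 CPM in Col-0. Its log2 difference between MA-Line1 and MC-Line3 was 2.12 ± 0.22 (edgeR, adjusted p = 6.89e-05). *WRKY70*, whose factor promotes salicylic acid responses over those to jasmonate, had 96.8 and 86.1 CPM in MA-Line1, 30.3 and 28.6 CPM in MC-Line3 and 57.6 and 75.4 CPM in Col-0, with a difference of 1.63 ± 0.12 between the lines (adjusted p = 6.11e-06). *PNP-A*, a small secreted peptide gene, had 10.9 and 10.8 CPM in MA-Line1, 4.03 and 3.57 CPM in MC-Line3 and 10.5 and 13.9 CPM in Col-0, with a difference of 1.52 ± 0.15 (adjusted p = 5.91e-05). In all 3 the MC-Line3 libraries were the lowest, and for *GRX480* and *PNP-A* the MA-Line1 libraries were not called against Col-0.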
